A study of Rattus norvegicus with 9 samples.

Results

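The genes described here build and ship secreted proteins: endoplasmic reticulum (ER) chaperones and folding enzymes, genes of the unfolded protein response and of ER-associated degradation (ERAD), subunits of the translocon and of the COPII coat, a pair of membrane-bound transcription factors, and enzymes that modify collagen. They were chosen by name, as a list of 38 symbols, and kept where the mean over 9 libraries was at least 1 FPKM (fragments per kilobase of transcript, scaled to library size, so that levels of different genes can be compared per length). All 38 were found and all passed that filter, among 11376 genes that did. Of the 38, 15 are chaperones and folding enzymes, 7 belong to the unfolded protein response and ERAD, 3 to the translocon, 4 to the COPII coat, 2 are membrane-bound transcription factors and 7 act on collagen.

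RNA was sequenced from wild-type S31 cells, primary vascular smooth muscle cells from cardiac microvessels of Wistar Kyoto males. All cells were deprived of serum for 48 h in DMEM with lactalbumin hydrolysate. The 3 control libraries (LH-NS) came from cells given fresh serum-free medium and harvested 24 h later. The remaining 6 came from cells given a growth factor at 25 ng/ml, in 2 sets of 3 that the expression table names IGF-NS and PDGF-NS. For these sets the sample records and the table columns disagree. Recombinant rat PDGF-BB and harvest at 48 h stand in the records that point to IGF-NS, whereas recombinant human IGF-1 and harvest at 24 h stand in those that point to PDGF-NS. The sets are therefore called by their columns throughout, and which factor each received is not settled here. By the records the growth factor and the harvest time cannot be told apart for the IGF-NS set. If the columns are right and the records switched, this holds for the PDGF-NS set instead. In either case the treated sets differ in both factor and harvest time, so the comparison between them cannot tell these apart. Whether the 3 libraries of a set came from separate cultures is not stated, so p-values measure the spread between libraries, which may be technical.

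Proteins bound for secretion enter the ER through the Sec61 channel, fold with the help of BiP, GRP94, the lectin chaperones and the protein disulfide isomerases, and leave in vesicles coated by COPII. When unfolded protein builds up, the sensors IRE1, PERK and ATF6 raise transcription of chaperones and ERAD genes, and misfolded chains are returned to the cytosol through the Sel1l-Hrd1 complex and degraded. Procollagen, a major product of synthetic smooth muscle cells, needs further steps in the same compartment: hydroxylation of prolines and lysines, binding by the collagen chaperone HSP47 and packing into large COPII carriers. CREB3L1 is an ER-resident transcription factor that, once cleaved, activates collagen and secretory genes.

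The response to unfolded protein is read from short promoter elements. Exact matches to the classical stress elements are shown for those of the 38 genes that had a promoter window. Promoter windows from 250 bases before to 50 bases after the start site were taken from RefSeq (rat build GRCr8) and matched by symbol for 31 of the 38 genes; Fkbp10, Sec24d, Pdia6, Sec61a1, Manf, Pdia3 and Derl1 had no entry. Both strands were searched for the ER stress response element ERSE (CCAAT and CCACG, separated by any 9 bases), for ERSE-II (ATTGG, the reverse complement of CCAAT, and CCACG, separated by any 1 base) and for the unfolded protein response element UPRE (TGACGTGG). ERSE was found in 7 of the 31 genes (22.6%), against 21 of 27457 genes with a window (0.0765%). ERSE-II was found in 3 of 31 (9.68%), against 17 of all genes (0.0619%), and UPRE in 2 of 31 (6.45%), against 187 (0.681%). Any of the 3 stood in 11 of 31 genes (35.5%) and in 224 of all genes (0.816%). The list was drawn up by name and includes genes of the unfolded protein response, whose known elements these motifs are. The excess over all genes was thus built into the choice of genes and motifs, and the shares are a description and no test. The stretches below are printed 5′ to 3′ on the strand of the gene, with the fixed letters of the motif in capitals. They lie at chr3:38452953-38453011 on the plus strand for Hspa5, at chr14:84604538-84604596 on the plus strand for Xbp1, at chr7:23012431-23012489 on the minus strand for Hsp90b1, at chr10:35158049-35158107 on the minus strand for Canx, at chr19:40213117-40213173 on the plus strand for Calr and at chr19:10614801-10614851 on the minus strand for Herpud1.
Hspa5 ERSE: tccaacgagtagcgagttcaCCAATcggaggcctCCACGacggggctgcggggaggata
Xbp1 ERSE: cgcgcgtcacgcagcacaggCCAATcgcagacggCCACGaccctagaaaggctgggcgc
Hsp90b1 ERSE: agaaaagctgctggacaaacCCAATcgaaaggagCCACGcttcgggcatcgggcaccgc
Canx ERSE: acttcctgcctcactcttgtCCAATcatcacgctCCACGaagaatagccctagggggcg
Calr ERSE, opposite orientation: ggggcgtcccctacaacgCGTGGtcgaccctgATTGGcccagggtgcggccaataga
Herpud1 ERSE-II: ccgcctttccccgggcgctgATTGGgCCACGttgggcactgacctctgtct

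The matches lay at different distances from the start site. In Hspa5 the element spanned bases 43 to 25 upstream and in Xbp1 bases 65 to 47. Hsp90b1 held 2 copies, at 176 to 158 and, in the opposite orientation, at 72 to 54. Dnajc3 (133 to 115), Creld2 (145 to 127), Canx (230 to 212) and Calr (232 to 214) held 1 each. Hyou1 carried 2 copies of ERSE-II in 1 window, where its UPRE overlapped the farther of them, and its other window held no match. Herpud1 carried ERSE-II at 124 to 114, Dnajb11 carried it at the start site itself, and Sec23a carried UPRE at 91 to 84. No match says only that these letters do not stand in the window, and a match is a sequence, not a shown binding site.

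**Figure D1:**
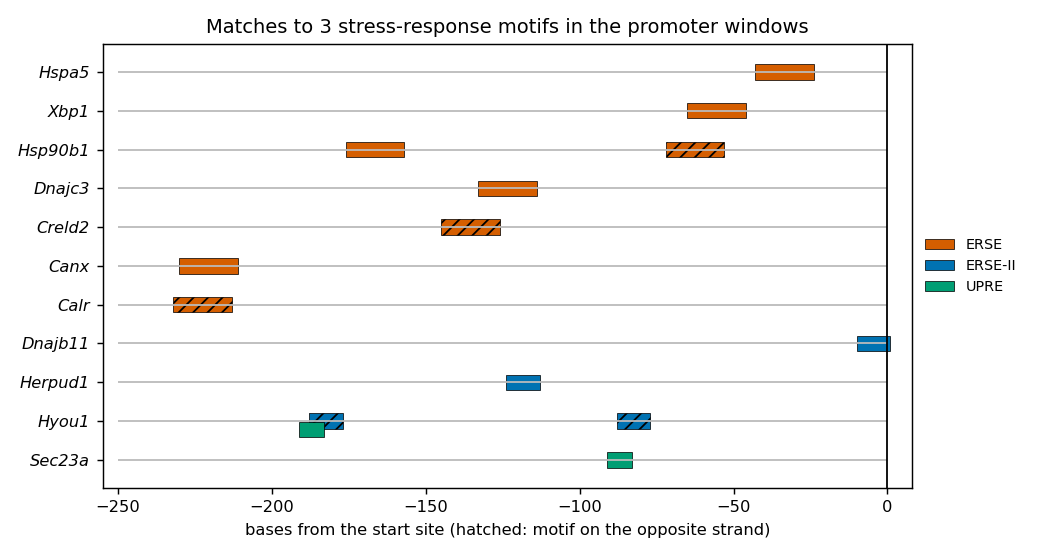
Position of each motif match in the promoter windows of the 11 genes that held one. The horizontal axis gives bases from the start site, boxes are coloured by motif, hatched boxes lie in the opposite orientation, and ERSE appears in 7 of the genes.

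These were abundant transcripts. Means over the 9 libraries ran from 12.9 FPKM for Dnajb9 to 1036 FPKM for Serpinh1, 19 of the 38 genes averaged 100 FPKM or more, and 37 stayed above 10 FPKM in every library. Summed over the 38 genes, the level was 5515 ± 93.9 FPKM in the control libraries (mean ± SD over 3 libraries, as for all ± values on levels), 6538 ± 301 in the IGF-NS libraries and 5359 ± 693 in the PDGF-NS libraries. Without rescaling, the IGF-NS sums, 6308 to 6879, lay above every control sum, 5409 to 5587, while the PDGF-NS sums, 4573 to 5882, overlapped them. The median log2 fold change of all genes was also positive for IGF-NS against control, 0.15. Median ratio factors, used for a rescaling below, were 0.9246 to 0.9545 for control libraries and 1.011 to 1.068 for IGF-NS libraries. Those of the PDGF-NS libraries were 0.9878 to 1.062. Whether the IGF-NS sums stay above control after rescaling was not tested. PDGF-NS library 1 gave the lowest sum of the 38 genes. It was the lowest library of its set for 34 of the 38 genes (89.5%), against 49.8% of all genes tested. Control library 1 was the lowest of its set for 25 of the 38 (65.8%, against 40.8% of all genes) and IGF-NS library 1 for 18 (47.4%, against 21.5%). Thus in all 3 sets library 1 was the lowest for more of the 38 than of all genes. This did not hold for every gene: control library 1 was the highest of its set for 10. The summed collagen-processing genes were highest in library 1 of control (1980 FPKM, against 1733 and 1617) and of IGF-NS (1934, against 1741 and 1892). In PDGF-NS library 1 had the lowest such sum, 1080. The cause of these shifts was not tested.

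Across the whole table, FPKM sums per library ran from 616765 to 748000 and genes at 1 FPKM or more from 11047 to 11348. Libraries of the same set correlated at r = 0.959 to 0.983 across genes, and libraries of different sets at 0.901 to 0.947. The labelled cell type was checked on 7 smooth muscle markers, of which 6 passed the filter. Their summed level was 2310 to 3300 FPKM in the control libraries, 498 to 524 in the IGF-NS libraries and 281 to 350 in the PDGF-NS libraries. Tagln and Cnn1 led the list, and Myh11 stayed under the filter with a mean of 0.942 FPKM. Of 6 fibroblast markers, 5 passed; their sum was 302 to 425, 1900 to 2020 and 843 to 1330 FPKM in the same order, and Tcf21 was listed at 0 in every library. Endothelial markers summed to at most 0.788 FPKM, with Cdh5 and Kdr listed at 0. Macrophage markers reached 9.41 FPKM in PDGF-NS, all but a trace of it from Cd68, with Ptprc, Cd163 and Aif1 listed at 0. Cardiomyocyte markers summed to 10.5 to 23.1, 8.66 to 19.8 and 1.82 to 5.26 FPKM, with Myh6 listed at 0, and epithelial markers to between 9.24 and 15. Of the 6 smooth muscle markers, 5 fell in each treated set, but Des rose in PDGF-NS, by 1.30 against control and 2.25 against IGF-NS. Of the 5 fibroblast markers, 4 rose in IGF-NS and 5 in PDGF-NS, while between the treated sets Dpt was higher in PDGF-NS (2.17) and Dcn (-2.38) and Lum (-0.78) lower. These markers thus differed between the sets compared below, and their part in the results was not tested. In bulk RNA a smaller number of cells of a type and less RNA per cell cannot be told apart.

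In the IGF-NS libraries the called folding genes were all higher than in control. Hsp90b1, Pdia4, Calr, Canx and P4hb rose against control, as did Herpud1, Derl2 and Creb3l1, while Edem1, Syvn1, Plod2 and Plod3 fell. That is 12 of 38 genes called at an adjusted p under 0.05 (limma, Benjamini-Hochberg over all genes tested), 8 higher and 4 lower, or 31.6%, where 24.9% of all genes were called. The higher calls made up 21.1% of the 38 (all genes: 17.4%) and the lower calls 10.5% (all genes: 7.48%). The median log2 fold change was 0.15 for the 38 genes and also 0.15 for all genes. Median ratio scaling moved the all-gene median from 0.15 to 0.01, and with it the split of the 38 became 5 higher and 6 lower, beside 10.1% and 10.7% of all genes. Library sets did not overlap for 17 of the 38 genes (44.7%), 12 above and 5 below control, against 39.0% of all genes (27.5% above, 11.6% below). Leaving out control library 3 left 6 calls, 4 of them higher and 2 lower, and leaving out IGF-NS library 2 left 7, 5 and 2. Without IGF-NS library 1 the lower calls came to 2. With array weights, which called 48.2% of all genes, 9 of the 38 were higher and 9 lower.

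In the PDGF-NS libraries 3 of 4 COPII genes and the collagen chaperone gene Serpinh1 were lower. Sec23b, Sec24d, Sec31a, Serpinh1, Creb3l1, Plod2 and Syvn1 fell against control, and Dnajb9, Canx, P4hb, Derl2, Sec61b and Plod1 rose. These were 13 of 38 genes (34.2%), where 31.0% of all genes were called. The 6 higher calls were 15.8% of the 38 (all genes: 20.7%) and the 7 lower calls 18.4% (all genes: 10.2%). The median log2 fold change was -0.01 for the 38 and 0.13 for all genes, and median ratio scaling moved these to -0.15 and 0.01. Library sets did not overlap for 9 genes above and 10 below control, where 48.6% of all genes did not overlap (31.3% above, 17.3% below). Without PDGF-NS library 3 only 6 calls were made, 2 higher and 4 lower. The lower calls also came to 4 without PDGF-NS library 1 and without control library 3. With array weights, 11 were higher and 8 lower, beside 32.2% and 15.8% of all genes.

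Set directly against each other, the PDGF-NS libraries had lower Creb3l1, Serpinh1, Herpud1, Pdia4, Sec24d and Sec31a than the IGF-NS libraries, and higher Plod1 and Edem1. These were 8 of 38 genes (21.1%), where 15.9% of all genes were called. The 2 higher calls were 5.26% of the 38 (all genes: 8.33%) and the 6 lower calls 15.8% (all genes: 7.55%). The median log2 fold change was -0.08 for the 38 and -0.02 for all genes. Library sets did not overlap for 5 genes above and 8 below, 34.2% of the 38 against 36.3% of all genes (16.9% above, 19.4% below). The calls numbered 4 without IGF-NS library 2 or without PDGF-NS library 3, and 5 without IGF-NS library 1. The lower calls came to 3 without IGF-NS library 2, PDGF-NS library 1 or PDGF-NS library 3. The higher calls ranged from 1, without IGF-NS library 1 or 2 or PDGF-NS library 3, to 4, without control library 1 or IGF-NS library 3. With array weights 9 were higher and 7 lower, which turned the balance of the split, beside 17.6% and 19.0% of all genes.

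Since all 38 genes averaged over 10 FPKM, the background among better expressed genes is also given: at a mean of at least 5 FPKM, 27.4%, 35.0% and 17.1% of genes were called in the same 3 comparisons. The 2 comparisons with control share the control libraries, so their values are set side by side and not treated as separate evidence. Of the 38 genes, 3 were called higher in both (Canx, P4hb, Derl2), 2 lower in both (Syvn1, Plod2) and 1 higher in IGF-NS and lower in PDGF-NS (Creb3l1). In all, 19 genes were called in at least 1 comparison and 19 in none. Rescaling to a common sum moved the all-gene median between the PDGF-NS and IGF-NS sets from -0.02 to -0.14, and that between PDGF-NS and control from 0.13 to 0.00. Quantile normalization moved the medians against control to 0.02 in IGF-NS and -0.00 in PDGF-NS. With a common sum the splits of the 38 were 8 higher and 4 lower in IGF-NS, 5 and 8 in PDGF-NS, and 2 and 8 between the treated sets, beside 6 and 4, 6 and 7, and 3 and 7 with quantile normalization. The background moved too. In PDGF-NS against control the lower calls were 18.4% to 21.1% of the 38 under the rescalings, beside 14.8% of all genes with a common sum or median ratio scaling and 15.4% with quantile normalization, so that the gap to all genes was smaller than without rescaling. Between the treated sets they were 21.1% of the 38 beside 13.0% of all genes with a common sum, 15.8% beside 7.2% with median ratio scaling and 18.4% beside 8.29% with quantile normalization.

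**Figure D2:**
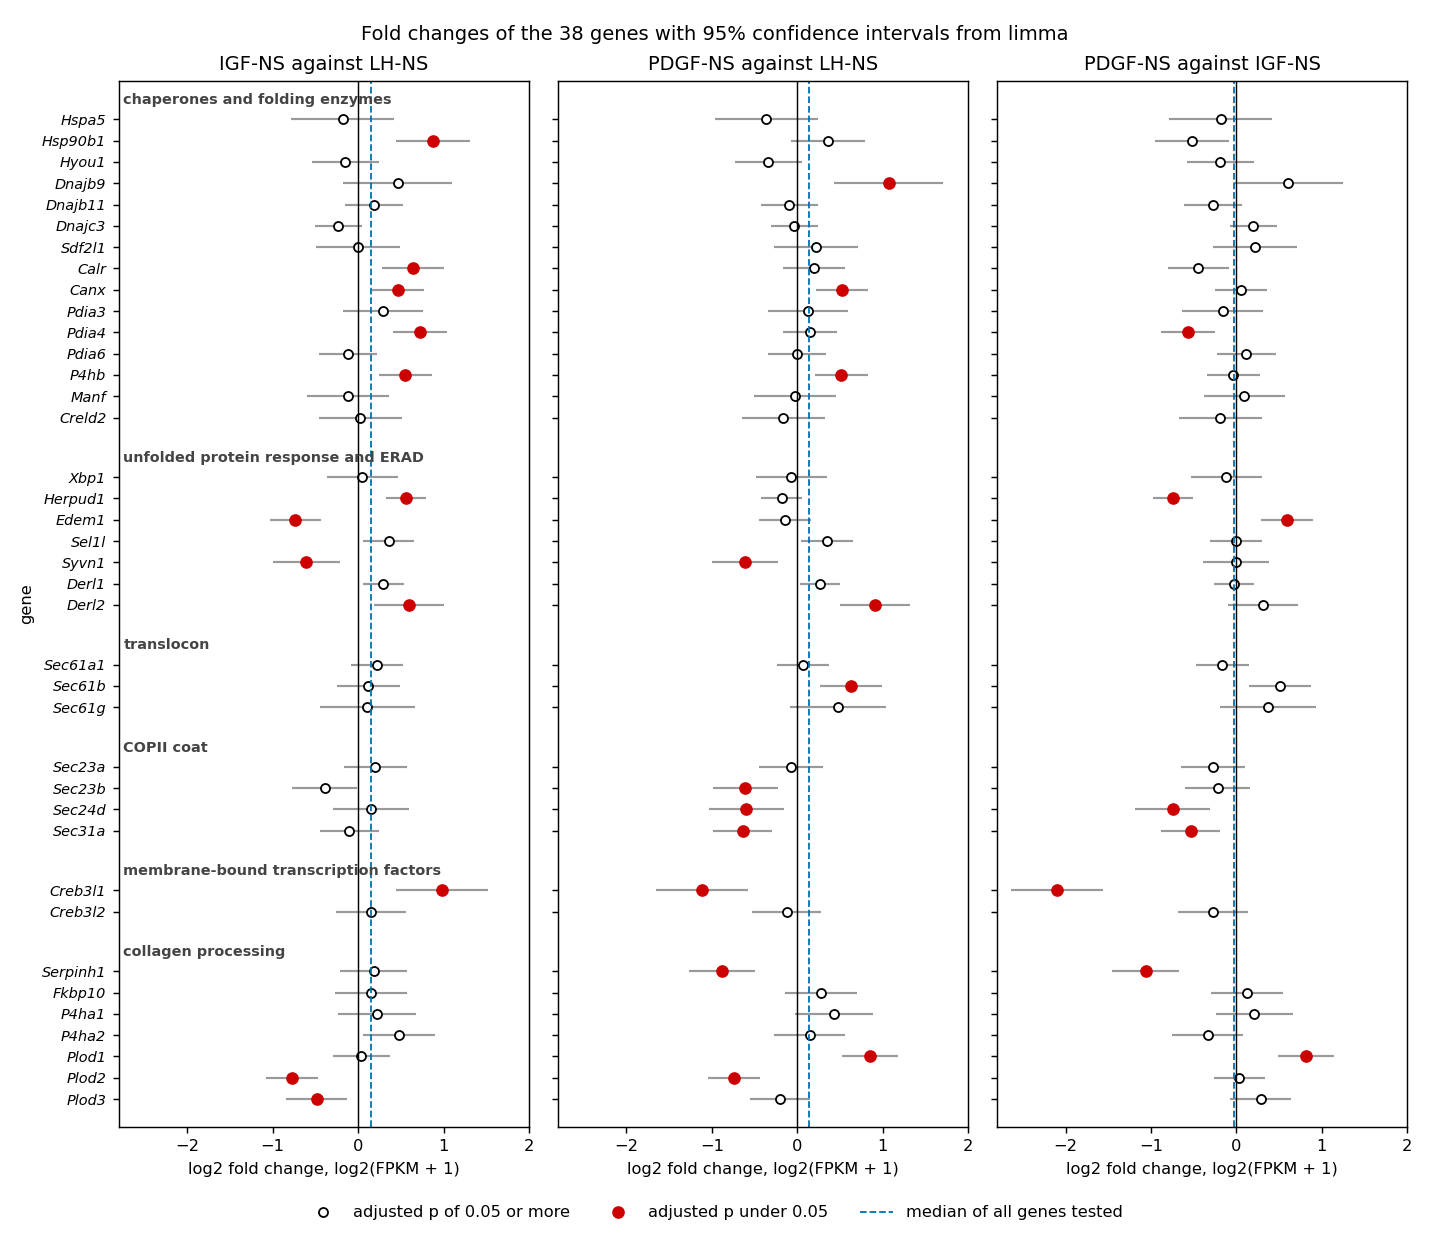
Log2 fold change of each of the 38 genes with its 95% confidence interval, on the log2(FPKM + 1) scale, in the 3 comparisons, ordered by role. Filled points passed an adjusted p of 0.05, the dashed line is the median of all genes tested, and Creb3l1 spans from 0.98 in IGF-NS to -1.12 in PDGF-NS against control.

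**Figure D3:**
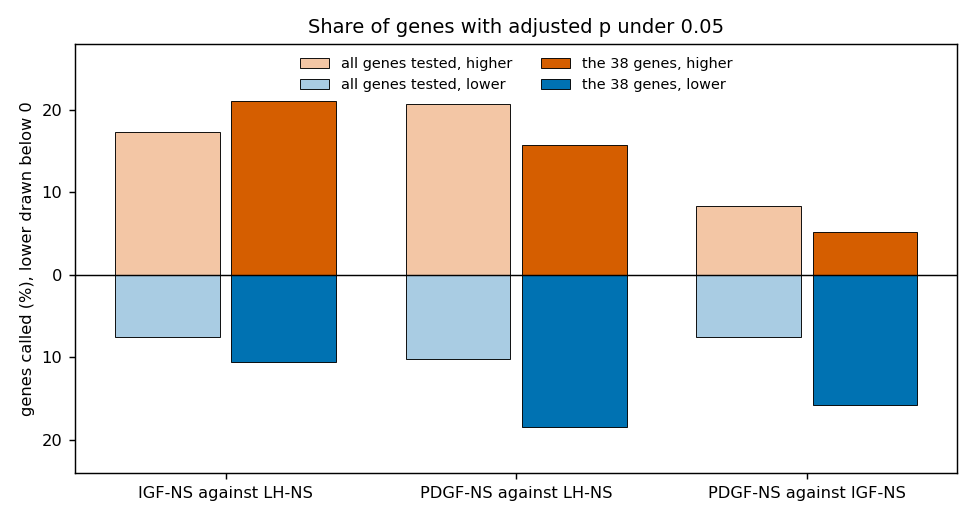
Percent of genes called higher (above 0) and lower (drawn below 0) in each comparison, pale bars for all genes tested and dark bars for the 38. Lower calls among the 38 were 18.4% in PDGF-NS against control and 15.8% in PDGF-NS against IGF-NS, beside 10.2% and 7.55% of all genes, shares of all genes that came to 14.8% and 13.0% with a common sum (not drawn).

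Among the 15 chaperones and folding enzymes, 5 rose and none fell in IGF-NS (median log2 fold change 0.19), except that with median ratio scaling 3 were higher and Dnajc3 was lower (median 0.03). With array weights, Hspa5, Dnajc3, Pdia6 and Manf were called lower there, as given below, and Hspa5 also in the other treated set. In PDGF-NS 3 rose and none fell (median 0.13, which became -0.02 with a common sum and -0.01 with median ratio scaling), and 1 was lower in PDGF-NS than in IGF-NS, against 3 with a common sum. The higher calls were 33.3% of the 15 in IGF-NS (all genes: 17.4%), while the 3 of 15 in PDGF-NS were close to the 20.7% of all genes. Their summed level was 2094 ± 228 FPKM in control, 2753 ± 164 in IGF-NS and 2441 ± 318 in PDGF-NS. Hsp90b1, which encodes the ER-resident HSP90 GRP94, had 108, 153 and 147 FPKM in the control libraries, 231, 306 and 215 in the IGF-NS libraries and 140, 197 and 186 in the PDGF-NS libraries. Every IGF-NS library lay above every control library, and the PDGF-NS libraries overlapped control. The log2 fold change in IGF-NS was 0.88 ± 0.20 (SE, adjusted p = 0.0099). The change in PDGF-NS, 0.36, did not pass (adjusted p = 0.19). Pdia4, a disulfide isomerase with 3 thioredoxin-like active sites, followed with 130, 149 and 138 FPKM in the control libraries, 239, 241 and 210 in the IGF-NS libraries and 129, 181 and 157 in the PDGF-NS libraries. The IGF-NS libraries again stood above all others. Pdia4 was higher than control by 0.72 ± 0.14 (adjusted p = 0.0056) and lower in PDGF-NS than in IGF-NS by a log2 fold change of -0.57 ± 0.14 (adjusted p = 0.022). The latter call ended without IGF-NS library 1 (adjusted p = 0.079), IGF-NS library 2 (0.066), PDGF-NS library 1 (0.069) or PDGF-NS library 3 (0.071).

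Calreticulin and calnexin are the lectin chaperones that hold glycoproteins until their glycans are trimmed. Calr had 288, 312 and 307 FPKM in the control libraries, 405, 524 and 494 in the IGF-NS libraries and 278, 408 and 365 in the PDGF-NS libraries. All IGF-NS libraries exceeded all control libraries, and 1 PDGF-NS library exceeded the lowest IGF-NS value. Calr rose in IGF-NS by 0.64 ± 0.16 (adjusted p = 0.017), a call that ended with median ratio scaling (0.053) and without IGF-NS library 2 (0.060). Canx rose in both sets, with 98.7 ± 12.9 FPKM in control, 137 ± 16.9 in IGF-NS and 141 ± 7.36 in PDGF-NS. Its log2 fold changes were 0.47 ± 0.14 (adjusted p = 0.032) and 0.52 ± 0.14 (adjusted p = 0.017). The IGF-NS call of Canx ended under 7 of 19 alternatives: median ratio scaling (log2 fold change 0.31, adjusted p = 0.14), quantile normalization (0.067), a fit of only the sets compared (0.071), array weights (log2 fold change 0.24, adjusted p = 0.061), and without control library 1 (0.080), control library 3 (0.065) or IGF-NS library 2 (0.10). Its PDGF-NS call ended with a common sum (0.067), with median ratio scaling (0.059) and without PDGF-NS library 3 (0.068).

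P4hb encodes protein disulfide isomerase, which is also the beta subunit of collagen prolyl 4-hydroxylase. Its level was 571 ± 40.8 FPKM in control, 838 ± 87.4 in IGF-NS and 820 ± 96.0 in PDGF-NS, and no library of either treated set fell to the control range. The log2 fold changes were 0.55 ± 0.14 and 0.52 ± 0.14 (adjusted p = 0.018 in each). The IGF-NS call ended without control library 2 (0.054), control library 3 (0.059) or IGF-NS library 1 (0.064), and the PDGF-NS call without control library 2 (0.056), control library 3 (0.061), PDGF-NS library 2 (0.071) or PDGF-NS library 3 (0.074). Dnajb9, the BiP cochaperone ERdj4, was the lowest of the 38 genes, at 4.54, 9.58 and 11.96 FPKM in the control libraries, 10.6, 14.2 and 10.3 in the IGF-NS libraries and 21.2, 14.6 and 19.4 in the PDGF-NS libraries. The PDGF-NS libraries lay above both other sets. Its rise in PDGF-NS was 1.07 ± 0.29 (adjusted p = 0.018). It came to 0.71 without control library 1, and the call ended without PDGF-NS library 1 (0.066) or PDGF-NS library 3 (0.062).

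BiP itself, the central ER chaperone encoded by Hspa5, did not pass in any comparison. Hspa5 had 130, 232 and 257 FPKM in the control libraries, 139, 220 and 175 in the IGF-NS libraries and 121, 189 and 159 in the PDGF-NS libraries. All 3 sets overlapped, and library 1 was the lowest in each of them. The log2 fold change was -0.18 in IGF-NS, with a 95% confidence interval of -0.78 to 0.42, and -0.36 in PDGF-NS, with an interval of -0.97 to 0.24, so a change of either sign remains within the spread. With array weights Hspa5 was called lower in IGF-NS (adjusted p = 0.013) and in PDGF-NS (0.040). The other 8 chaperones and folding enzymes did not pass either. Their log2 fold changes in IGF-NS and PDGF-NS were -0.15 and -0.34 for the nucleotide exchange factor Hyou1, 0.19 and -0.09 for Dnajb11, -0.23 and -0.03 for Dnajc3, and 0.00 and 0.21 for Sdf2l1. Among disulfide isomerases they were 0.29 and 0.13 for Pdia3 and -0.12 and -0.00 for Pdia6. The secreted stress proteins Manf and Creld2 gave -0.12 and -0.02, and 0.02 and -0.17. Of these, Dnajc3 in IGF-NS passed with median ratio scaling (0.046) and array weights (0.012), and Pdia6 (0.034) and Manf (0.018) passed there with array weights.

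**Figure D4:**
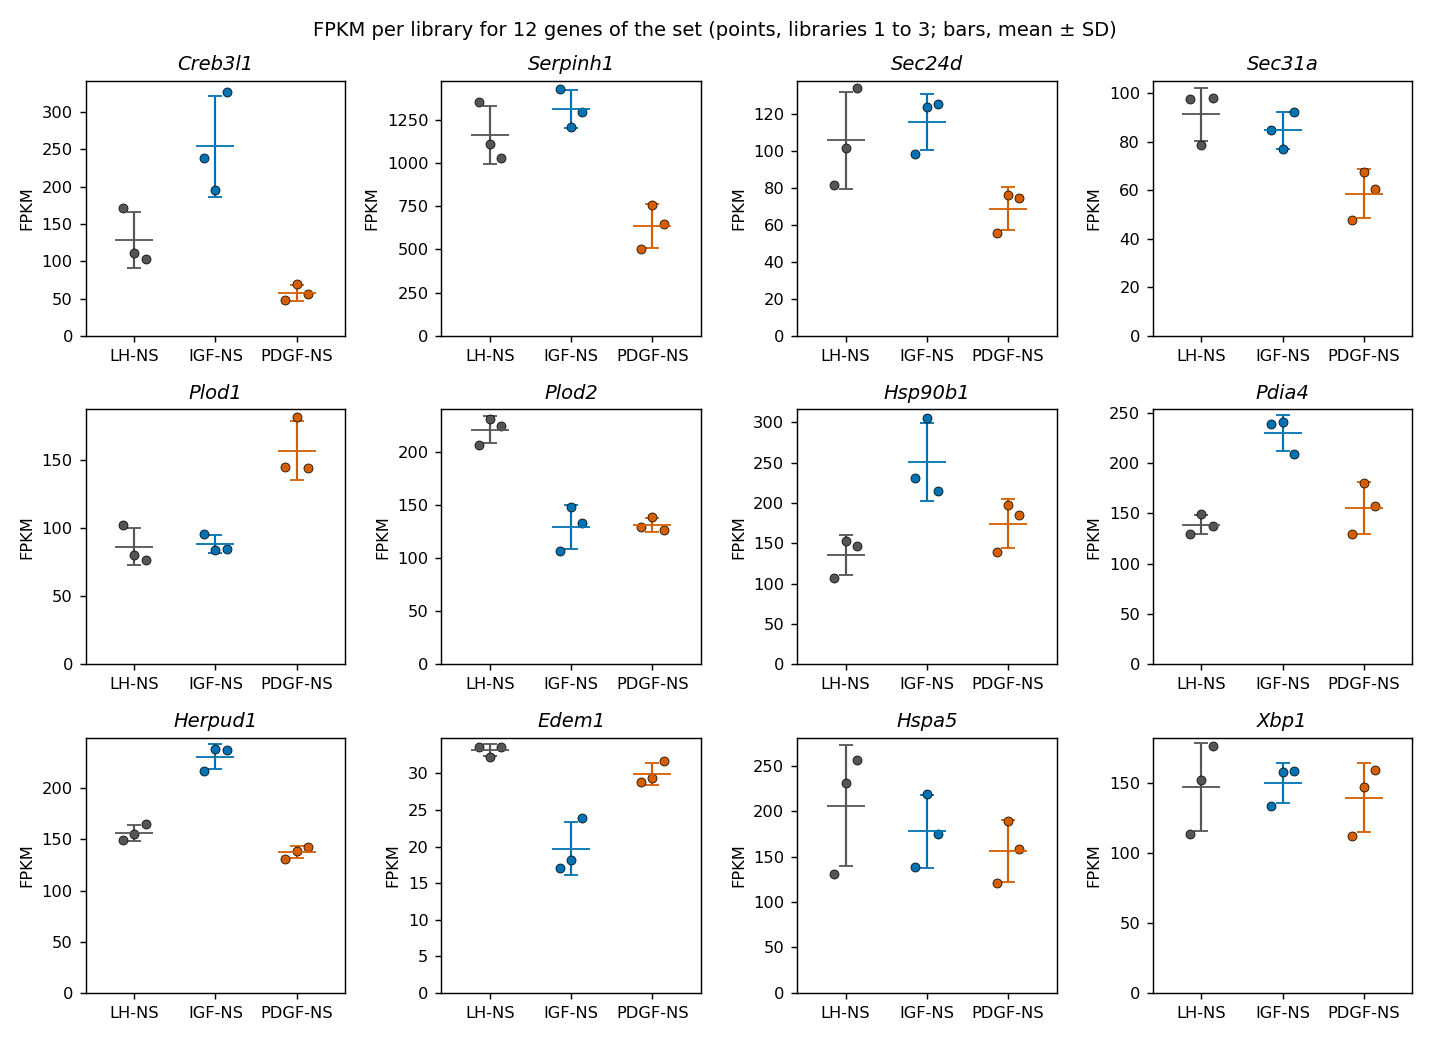
FPKM of 12 genes in each of the 9 libraries, points for libraries 1 to 3 of a set and bars for the mean ± SD. Creb3l1 and Herpud1 are highest in the IGF-NS libraries, Serpinh1, Sec24d and Sec31a lowest in the PDGF-NS libraries, and Hspa5 and Xbp1 overlap between all 3 sets.

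The 7 genes of the unfolded protein response and ERAD moved in both directions: 2 rose and 2 fell in IGF-NS, 1 rose and 1 fell in PDGF-NS (1 and 2 with a common sum or median ratio scaling), and PDGF-NS against IGF-NS gave 1 of each. With median ratio scaling or quantile normalization 1 was higher and 2 lower in IGF-NS. With 7 genes each call is 14.3% of the list, where of all genes 17.4% were called higher and 7.48% lower in IGF-NS, and 20.7% higher and 10.2% lower in PDGF-NS. Between the treated sets 8.33% of all genes were called higher and 7.55% lower. Herpud1, which organises the ERAD complex in the ER membrane, had 150, 155 and 165 FPKM in the control libraries, 217, 239 and 238 in the IGF-NS libraries and 131, 139 and 143 in the PDGF-NS libraries. The 3 sets did not overlap, with IGF-NS on top and PDGF-NS lowest. Herpud1 rose in IGF-NS by 0.56 ± 0.11 (adjusted p = 0.0049) and was lower in PDGF-NS than in IGF-NS by -0.74 ± 0.11 (adjusted p = 0.0012). Its difference between PDGF-NS and control, -0.18, did not pass (adjusted p = 0.22), but did so with a common sum (0.044) or median ratio scaling (0.046). Edem1, a lectin that directs misfolded glycoproteins to ERAD, was lowest in IGF-NS, with 33.6, 32.3 and 33.7 FPKM in the control libraries, 17.1, 18.2 and 23.9 in the IGF-NS libraries and 28.9, 29.4 and 31.7 in the PDGF-NS libraries. Each IGF-NS library was below every other library. Edem1 changed by -0.73 ± 0.14 in IGF-NS (adjusted p = 0.0042), and was higher in PDGF-NS than in IGF-NS by 0.59 ± 0.14 (adjusted p = 0.015). That second call ended without library 1 (0.065) or 2 (0.052) of IGF-NS or library 3 of PDGF-NS (0.071).

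Syvn1 and Sel1l form the Hrd1 ubiquitin ligase complex of ERAD. Syvn1 had 107, 87.5 and 102 FPKM in the control libraries, 57.8, 57.8 and 79.7 in the IGF-NS libraries and 52.5, 75.4 and 66.5 in the PDGF-NS libraries. Both treated sets were below control and overlapped each other. The log2 fold change was -0.61 ± 0.17 in each set (adjusted p = 0.030 in IGF-NS and 0.023 in PDGF-NS). The IGF-NS call ended without control library 1 (0.074), control library 3 (0.079), library 1 (0.11) or 2 (0.094) of IGF-NS, and the PDGF-NS call without control library 1 (0.061), control library 3 (0.064), PDGF-NS library 1 (0.083) or PDGF-NS library 3 (0.059). Its partner Sel1l had positive log2 fold changes of 0.36 and 0.35 that did not pass (adjusted p = 0.084 and 0.076), although its libraries lay above control in both sets. With array weights the second passed (0.021). Derl2 and Derl1 encode derlins, which take part in moving chains out of the ER. Derl2 had 31.01, 48.7 and 33.9 FPKM in the control libraries, 49.7, 61.0 and 59.8 in the IGF-NS libraries and 65.2, 64.3 and 83.6 in the PDGF-NS libraries. The 3 sets did not overlap. Derl2 rose by 0.91 ± 0.18 in PDGF-NS (adjusted p = 0.0044) and by 0.59 ± 0.18 in IGF-NS (adjusted p = 0.039). The IGF-NS call of Derl2 ended under 12 of 19 alternatives, with log2 fold change 0.20 and adjusted p = 0.29 with array weights, 0.11 with median ratio scaling, 0.064 with quantile normalization, 0.070 with only the sets compared, 0.058 with no filter, and 0.052 to 0.11 without control library 1 or 3, any 1 IGF-NS library, or PDGF-NS library 1 or 2. Derl1 gave 0.30 and 0.27 (adjusted p = 0.068 and 0.081), and both passed with no filter (0.042 and 0.049) and with array weights (0.026 and 0.016).

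Xbp1, the transcription factor whose mRNA is spliced by IRE1, was measured only as a gene total, so its spliced form was not analysed here. It had 114, 152 and 176 FPKM in the control libraries, 134, 158 and 159 in the IGF-NS libraries and 112, 147 and 160 in the PDGF-NS libraries. The sets overlapped fully. The log2 fold change was 0.05 in IGF-NS, with a 95% confidence interval of -0.37 to 0.46, and -0.07 in PDGF-NS, with an interval of -0.49 to 0.34.

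Of the 3 subunits of the Sec61 translocon, the protein-conducting channel, only the beta subunit passed, and only against control in PDGF-NS. This single call is 33.3% of a list of 3, where 20.7% of all genes were called higher. Sec61b had 160, 205 and 187 FPKM in the control libraries, 198, 173 and 228 in the IGF-NS libraries and 236, 290 and 331 in the PDGF-NS libraries. All PDGF-NS libraries exceeded all others. The rise was 0.63 ± 0.16 (adjusted p = 0.016), and the call ended without PDGF-NS library 2 (0.051) or PDGF-NS library 3 (0.072). Its log2 fold change against IGF-NS, 0.51, did not pass (adjusted p = 0.063), but did so under 6 of 19 alternatives, with adjusted p from 0.0024 with array weights to 0.050 without IGF-NS library 3. The channel-forming Sec61a1 gave 0.22 in IGF-NS and 0.06 in PDGF-NS, and the gamma subunit Sec61g gave 0.11 and 0.47, none of them past the threshold. Sec61g in PDGF-NS passed with only the sets compared (0.040), array weights (0.010) or without IGF-NS library 3 (0.041).

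The COPII coat genes were lower in PDGF-NS: 3 of 4 fell, with a median log2 fold change of -0.60, and the same count fell under all 3 rescalings. These are 75.0% of a list of only 4, beside 10.2% of all genes. None was called in IGF-NS (median 0.02), where Sec23b was called lower with median ratio scaling. Against IGF-NS, 2 of the 4 were lower in PDGF-NS. Sec24d, the cargo-binding inner coat subunit that is needed for procollagen export, had 81.9, 102 and 134 FPKM in the control libraries, 98.5, 124 and 126 in the IGF-NS libraries and 55.8, 76.4 and 74.8 in the PDGF-NS libraries. The PDGF-NS libraries were below both other sets. Sec24d changed by -0.60 ± 0.20 against control (adjusted p = 0.044) and by -0.75 ± 0.20 against IGF-NS (adjusted p = 0.029). Sec31a, of the outer coat, had 97.5, 78.9 and 98.0 FPKM in the control libraries, 85.0, 77.2 and 92.4 in the IGF-NS libraries and 47.6, 67.6 and 60.7 in the PDGF-NS libraries. Again all PDGF-NS libraries were lowest, and control and IGF-NS overlapped. Its change was -0.64 ± 0.16 against control (adjusted p = 0.011) and -0.54 ± 0.16 against IGF-NS (adjusted p = 0.042). Sec23b, a GTPase-activating inner coat subunit, had 28.9, 34.5 and 45.1 FPKM in the control libraries, 24.5, 28.6 and 27.7 in the IGF-NS libraries and 19.9, 26.2 and 23.1 in the PDGF-NS libraries. Both treated sets lay below control. It changed by -0.61 ± 0.17 in PDGF-NS (adjusted p = 0.022) and by -0.39 in IGF-NS, which did not pass (adjusted p = 0.12). Its paralog Sec23a gave 0.20 and -0.07 and did not pass.

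Of the COPII calls only that of Sec31a against control held under all 19 alternatives. The call of Sec24d against control ended under 9 of them: with no filter (0.066), with only the sets compared (0.062), and with adjusted p from 0.051 to 0.15 without control library 2 or 3, IGF-NS library 1 or 2, or any 1 PDGF-NS library. Its call against IGF-NS ended without IGF-NS library 2 (0.084), IGF-NS library 3 (0.078), PDGF-NS library 1 (0.10), PDGF-NS library 2 (0.052) or PDGF-NS library 3 (0.065). The call of Sec31a against IGF-NS ended with no filter (0.052), with a replicate block (0.071), and without control library 3 (0.053), any 1 IGF-NS library (0.11, 0.056 and 0.11), or library 1 (0.13) or 3 (0.10) of PDGF-NS. Sec23b lost its PDGF-NS call without control library 3 (0.070), PDGF-NS library 1 (0.079) or PDGF-NS library 3 (0.063), and in IGF-NS it passed with median ratio scaling (0.048), array weights (0.0056) or without control library 1 (0.045).

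Creb3l1 had the largest absolute log2 fold change of the 38 genes in all 3 comparisons. It stood at 172, 111 and 103 FPKM in control, at 239, 196 and 328 in IGF-NS and at 47.9, 69.3 and 56.3 in PDGF-NS. The 3 sets did not overlap: every IGF-NS library was above control and every PDGF-NS library below it. In the means, 129 ± 37.6, 254 ± 67.3 and 57.8 ± 10.8 FPKM, IGF-NS was 1.98 times control and control was 2.22 times PDGF-NS. The log2 fold change was 0.98 ± 0.24 in IGF-NS (adjusted p = 0.015) and -1.12 ± 0.24 in PDGF-NS (adjusted p = 0.0061). Between the treated sets it was -2.10 ± 0.24 (adjusted p = 0.00031), with a 95% confidence interval of -2.63 to -1.56. The IGF-NS call ended without control library 2 (0.0504) or control library 3 (0.054), while both calls that involve PDGF-NS held under all 19 alternatives. Creb3l2, a close relative in the same family, was expressed at 171 ± 32.4, 191 ± 44.3 and 155 ± 8.03 FPKM, and its log2 fold changes of 0.15, -0.12 and -0.27 did not pass.

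Among the 7 collagen-processing genes, Plod1 rose in PDGF-NS, where Plod2 and Serpinh1 fell. In IGF-NS 2 fell and none rose, in PDGF-NS 1 rose and 2 fell, and between the treated sets PDGF-NS had 1 higher and 1 lower, with the same counts under all 3 rescalings. In shares, 28.6% fell in IGF-NS (all genes: 7.48%), and 14.3% rose and 28.6% fell in PDGF-NS (all genes: 20.7% and 10.2%), which in a list of 7 are 1 or 2 genes each. Between the treated sets 14.3% were higher and 14.3% lower (all genes: 8.33% and 7.55%). The summed level was 1777 ± 185 FPKM in control, 1856 ± 102 in IGF-NS and 1285 ± 200 in PDGF-NS, of which Serpinh1 made up the largest share. Serpinh1 encodes HSP47, the ER chaperone that binds folded procollagen. It had 1349, 1112 and 1026 FPKM in the control libraries, 1427, 1210 and 1297 in the IGF-NS libraries and 501, 758 and 645 in the PDGF-NS libraries. The PDGF-NS libraries lay below all 6 others. Serpinh1 changed by -0.88 ± 0.17 in PDGF-NS against control (adjusted p = 0.0040) and by -1.06 ± 0.17 against IGF-NS (adjusted p = 0.0025), and both calls held under all 19 alternatives. Its log2 fold change in IGF-NS, 0.18, did not pass (adjusted p = 0.49), except with array weights (0.045).

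The 3 lysyl hydroxylases act on different parts of collagen. Plod1, which hydroxylates lysines of the triple helix, had 102, 80.7 and 76.7 FPKM in the control libraries, 96.0, 84.3 and 84.7 in the IGF-NS libraries and 145, 182 and 144 in the PDGF-NS libraries. All PDGF-NS libraries stood above all others, and control and IGF-NS overlapped. Plod1 rose by 0.85 ± 0.15 in PDGF-NS (adjusted p = 0.0019) and was higher than in IGF-NS by 0.82 ± 0.15 (adjusted p = 0.0043). Its value in IGF-NS against control was 0.04, with a 95% confidence interval of -0.29 to 0.37. Plod2, which hydroxylates telopeptide lysines, had 207, 231 and 225 FPKM in the control libraries, 107, 148 and 134 in the IGF-NS libraries and 130, 139 and 126 in the PDGF-NS libraries. Both treated sets lay below control and overlapped each other. It changed by -0.78 ± 0.14 in IGF-NS (adjusted p = 0.0033) and by -0.74 ± 0.14 in PDGF-NS (adjusted p = 0.0026). The calls of Plod1 and Plod2 held under all 19 alternatives. Plod3, which also glycosylates hydroxylysine, had 64.1, 49.7 and 53.0 FPKM in the control libraries, 37.4, 34.5 and 46.4 in the IGF-NS libraries and 41.0, 53.3 and 50.1 in the PDGF-NS libraries. The IGF-NS libraries were below control, and the PDGF-NS libraries overlapped it. Its fall in IGF-NS, -0.49 ± 0.16 (adjusted p = 0.049), ended under 10 of 19 alternatives: with no filter (0.063), with only the sets compared (0.078), with a replicate block (0.080), and with adjusted p from 0.058 to 0.15 without any 1 control library, IGF-NS library 1 or 2, or PDGF-NS library 2 or 3.

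The prolyl 4-hydroxylase catalytic subunits did not pass. P4ha1 had log2 fold changes of 0.22 in IGF-NS and 0.43 in PDGF-NS, and P4ha2 of 0.48 (adjusted p = 0.090) and 0.14. P4ha1 passed in PDGF-NS with array weights (0.043) or without PDGF-NS library 1 (0.043). P4ha2 passed in IGF-NS with only the sets compared (0.048), with array weights (0.0095) or without PDGF-NS library 1 (0.042) or 2 (0.049). The collagen prolyl isomerase gene Fkbp10 gave 0.15 and 0.28 and passed only with array weights, in PDGF-NS (0.035).

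The promoter elements shown above can be set beside these changes, as a description with no test. Of the 7 genes with ERSE, Calr, Canx and Hsp90b1 rose in IGF-NS, Canx rose in PDGF-NS, and Hspa5, Xbp1, Dnajc3 and Creld2 were called in neither. Of the 10 genes with ERSE or ERSE-II, 4 rose and none fell in IGF-NS (median log2 fold change 0.12) and 1 rose and none fell in PDGF-NS (median -0.08), except that with median ratio scaling Calr and Canx lost their calls and Dnajc3 was called lower in IGF-NS, with quantile normalization Canx lost its call there, and with a common sum or median ratio scaling Canx lost its call and Herpud1 was called lower in PDGF-NS. Array weights changed these counts as well. With them the ERSE gene Hspa5 was called lower than control in both treated sets (adjusted p = 0.013 and 0.040). For IGF-NS, Dnajc3 was then also called lower (0.012) and Canx lost its call (0.061). Of the 20 genes whose window held none of the 3 motifs, 4 rose and 4 fell in IGF-NS (median 0.14) and 5 rose and 6 fell in PDGF-NS (median 0.15). Of all genes, 17.4% were called higher and 7.48% lower when IGF-NS was compared with control. For the PDGF-NS comparison these shares were 20.7% and 10.2%. Creb3l1, Serpinh1, Plod1, Plod2 and Sec31a, with some of the largest changes, had no match in their windows.

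Other genes of the same pathway were read from 6 lists with 128 further symbols, of which 118 passed the filter. Together 15 rose and 6 fell in IGF-NS, 23 rose and 12 fell in PDGF-NS, and 5 were higher and 6 lower in PDGF-NS than in IGF-NS. These shares were below or near those of all genes: 12.7% and 5.08% in IGF-NS (all genes: 17.4% and 7.48%), 19.5% and 10.2% in PDGF-NS (all genes: 20.7% and 10.2%), and 4.24% and 5.08% between the treated sets (all genes: 8.33% and 7.55%). Their median log2 fold changes were 0.09, 0.04 and -0.02. These splits depended on the scaling: in IGF-NS they became 5 higher and 17 lower with median ratio scaling and 9 and 12 with quantile normalization, in PDGF-NS 15 and 24 with a common sum, 16 and 25 with median ratio scaling and 17 and 25 with quantile normalization, and between the treated sets 3 and 17 with a common sum. The cause was not tested. Beside these counts and those of the single lists below, the shares of all genes under the rescalings are given here. They were 10.1% to 16.5% higher and 7.71% to 10.7% lower in IGF-NS. In PDGF-NS they were 14.9% to 15.4% higher and 14.8% to 15.4% lower. Between the treated sets a common sum gave 6.48% higher and 13.0% lower. By the rule of the 3 largest changes per list and comparison, with 2 further lists on fibrillar collagens and on ER-phagy, 51 calls in 35 genes were picked out, of which 33 held under all 19 alternatives. For the 6 pathway lists and the collagens, values are given for calls among those 33, and also for Sar1b and Atf4, whose calls did not hold throughout.

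Among 21 other ER folding and disulfide enzymes, 5 rose and 2 fell in IGF-NS (23.8% and 9.52%, beside 17.4% and 7.48% of all genes). In PDGF-NS 8 rose and 2 fell (38.1% and 9.52%, beside 20.7% and 10.2%). Between the treated sets 1 was higher in PDGF-NS than in IGF-NS (4.76%, beside 8.33%). Under the 3 rescalings, 2 to 5 were higher and 2 lower in IGF-NS and 6 to 7 higher and 4 lower in PDGF-NS, and a common sum gave none higher and 4 lower between the treated sets. Fkbp7, an ER prolyl isomerase, went from 69.2 ± 18.6 to 159 ± 22.9 FPKM in IGF-NS (log2 fold change 1.22 ± 0.20, adjusted p = 0.0024). Uggt1, which senses incompletely folded glycoproteins for the calnexin cycle, rose there by 0.66 ± 0.15 (adjusted p = 0.012). In PDGF-NS the thioredoxin-family genes Erp44 and Tmx1 each rose by 0.97 (adjusted p = 0.0017 and 0.0048), Erp44 from 54.4 ± 1.52 to 108 ± 1.03 FPKM. Among 26 genes of signal recognition, translocation and N-glycosylation, 7 rose and 1 fell in IGF-NS (26.9% and 3.85%, beside 17.4% and 7.48% of all genes). In PDGF-NS 9 rose (34.6%, beside 20.7% of all genes) and none fell. Under the rescalings 5 to 6 were higher in PDGF-NS (19.2% to 23.1%, beside 14.9% to 15.4% of all genes) and 1 to 2 lower. In IGF-NS median ratio scaling gave 1 higher and 2 lower and quantile normalization 4 and 2. Srp72, of the signal recognition particle, rose by 0.92 and 0.90 (adjusted p = 0.0081 and 0.0063), and Sec11c, of the signal peptidase, by 0.91 in PDGF-NS (adjusted p = 0.0051).

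Of 13 sensors and effectors of the unfolded protein response, 2 rose and 1 fell in IGF-NS and 2 rose and 3 fell in PDGF-NS. In IGF-NS these were 15.4% and 7.69% (all genes: 17.4% and 7.48%). The PDGF-NS shares were 15.4% and 23.1% (all genes: 20.7% and 10.2%). The lower calls came to 4 in IGF-NS with median ratio scaling and 3 with quantile normalization, and to 5 in PDGF-NS under all 3 rescalings. Ddit3, which encodes the stress transcription factor CHOP, had 61.8 ± 11.6 FPKM in control, 132 ± 22.5 in IGF-NS and 163 ± 17.8 in PDGF-NS and rose in both (log2 fold changes 1.08 and 1.39, adjusted p = 0.0022 and 0.00028). Chac1, another gene downstream of ATF4 and CHOP, went the other way in PDGF-NS, from 52.8 ± 3.83 to 22.03 ± 6.64 FPKM (-1.26 ± 0.23, adjusted p = 0.0023). Atf4 itself was also lower in PDGF-NS than in control, at 615 ± 71.0 against 866 ± 42.3 FPKM (-0.50 ± 0.14, adjusted p = 0.024). That call ended under 4 of 19 alternatives. Sesn2 rose in IGF-NS by 0.83 (adjusted p = 0.0054) and Creb3 changed there by -0.64 (adjusted p = 0.0090). The sensor kinase gene Eif2ak3 (PERK) was higher in PDGF-NS than in IGF-NS by 0.66 (adjusted p = 0.0051). Of 15 other ERAD genes, 1 fell in IGF-NS and 1 rose and 1 fell in PDGF-NS; with median ratio scaling 3 were lower in IGF-NS.

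Among 30 other ER-to-Golgi traffic genes, 1 rose in IGF-NS (3.33%, beside 17.4% of all genes). In PDGF-NS 3 rose and 3 fell (10.0% each, beside 20.7% and 10.2% of all genes). Under the rescalings 1 was higher and 8 or 9 lower in PDGF-NS. The lower calls were then 26.7% to 30.0% of the list, beside 14.8% to 15.4% of all genes. In IGF-NS median ratio scaling gave none higher and 4 lower and quantile normalization none and 2. Sec24a, a COPII paralog of Sec24d, changed by -0.82 ± 0.16 in PDGF-NS against control (adjusted p = 0.0037) and by -0.76 ± 0.16 against IGF-NS (adjusted p = 0.011). The COPII GTPase gene Sar1b went the other way, from 61.0 ± 22.2 FPKM in control to 99.0 ± 6.16 in PDGF-NS. Its log2 fold change was 0.75 ± 0.24 (adjusted p = 0.036), and that call ended under 10 of 19 alternatives. Of 13 other collagen-modifying genes, 1 fell in IGF-NS and 3 fell in PDGF-NS, and none rose, also under the rescalings. These gave 1 or 2 lower in IGF-NS and 4 or 5 lower in PDGF-NS. Without rescaling the lower calls were 7.69% in IGF-NS (all genes: 7.48%) and 23.1% in PDGF-NS (all genes: 10.2%). With rescaling they were 30.8% to 38.5% in PDGF-NS (all genes: 14.8% to 15.4%). P4ha3, the third prolyl 4-hydroxylase catalytic subunit, had 101 ± 10.9 FPKM in control, 49.3 ± 6.45 in IGF-NS and 28.2 ± 2.59 in PDGF-NS (-1.02 and -1.80, adjusted p = 0.00086 and 1.5e-05). Sparc, a collagen-binding glycoprotein, had 8653 ± 391 FPKM in control and 4304 ± 713 in PDGF-NS (-1.02 ± 0.16, adjusted p = 0.0011). The substrates themselves, 6 fibrillar collagen chains, gave 2 higher in IGF-NS and 1 lower in PDGF-NS (2 with quantile normalization). Against IGF-NS, 3 were lower in PDGF-NS (4 under each rescaling). With 6 genes each call is 16.7% of the list. Of all genes, 17.4% were called higher in IGF-NS and 10.2% lower in PDGF-NS. The share of all genes lower in PDGF-NS than in IGF-NS was 7.55%, and 7.2% to 13.0% under the rescalings. Col3a1 had 705 ± 94.0 FPKM in control, 1760 ± 284 in IGF-NS and 768 ± 188 in PDGF-NS, higher by 1.32 in IGF-NS than in control (adjusted p = 0.0017) and lower by -1.21 in PDGF-NS than in IGF-NS (adjusted p = 0.0028). Col5a1 was lower in PDGF-NS than in control by -0.79 (adjusted p = 0.011).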

How the data were processed

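Per the labels' protocols, Trizol-extracted total RNA went into libraries with Lexogen's SENSE mRNA kit v2. The submitters' processing notes name GSNAP and Cufflinks, and for their settings and the genome build the entry is: not given in the sources used here. Per gene and library the authors deposited FPKM values, so count models do not apply and the read number behind each value is unknown; steps between low values put relative depth at 0.66 to 1.3 of control library 1. Of 26407 rows, 4 genes with failed estimates and 2 repeated all-zero rows were left out. With limma 3.58.1 in R 4.3.3, limma-trend was fitted to log2(FPKM + 1) of the 11376 genes averaging 1 FPKM or more over all 9 libraries, with the set as the only term. The added 1 shrinks fold changes of low genes. From this fit 3 two-sided contrasts were taken, adjusted by Benjamini-Hochberg over all genes and called under 0.05. The procedure was tested on simulated data with independent noise and no shifts between libraries. That test does not bear on how the calls depend on scaling or on single libraries. Promoter windows came from RefSeq (GRCr8). Reads shared between paralogs may have been split by the counting.

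Values in every library are given for Hspa5, Xbp1, Serpinh1 and, in each role, up to 4 called genes with the largest change; from each pathway list, up to 3 called genes per contrast were picked. The 38 genes, the lists and the tests were chosen with earlier results of these data known. In all, 19 alternatives were tried: pseudocounts of 0.1 and 5, no filter, a mean of at least 5 FPKM, 3 rescalings, only the sets compared, array weights, a replicate block, and leaving out each of the 9 libraries.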

Additional observations from a re-analysis of the deposited data

How the results depend on the processing

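Of 33 calls in the 38 genes, 15 held under all 19 alternatives and 18 ended under at least 1; none reversed. Of 81 uncalled values, 24 gained a call somewhere and 35 changed sign. With array weights, which ran from 0.273 to 3.93 per library, in IGF-NS against control 9 genes were lower and the median log2 fold change was 0.0321, in PDGF-NS against control 11 were higher, and in PDGF-NS against IGF-NS 16 were called, 9 of them higher. Median ratio scaling left 5 genes higher in IGF-NS against control, with a median of -0.0081. Leaving out 1 library at a time gave, in IGF-NS against control, 6 to 12 calls, 4 to 8 higher and 2 to 4 lower, with medians of 0.0397 (without control library 1) to 0.219. In PDGF-NS against control it gave 6 to 14 calls, 2 to 7 higher and 4 to 7 lower, with medians of -0.10 to 0.097. In PDGF-NS against IGF-NS it gave 4 to 10 calls, 1 to 4 higher and 3 to 6 lower, with medians of -0.141 to 0.026. With 1 library left out the fit also holds fewer libraries, and the cause of these shifts was not tested. With a replicate block the calls were 11, 13 and 7, against 12, 13 and 8. Over all genes, deviations of same-numbered libraries correlated at 0.17, 0.253 and -0.276 between IGF-NS and control, at -0.115, -0.187 and -0.0605 between PDGF-NS and control, and at -0.117, -0.0741 and 0.066 between the treated sets. These values show no steady pairing by number, but with 3 libraries a set they cannot exclude one. Not every library correlated best with its own number. Among the 38 genes alone, library 1 had the lowest median deviation in each set (-0.129 in control, -0.102 in IGF-NS and -0.219 in PDGF-NS); whether library 1 shared a day or batch across sets is not stated. With 3 libraries a set, many intervals of uncalled genes include changes as large as some that were called.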

Other observations

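Genes that shape and turn over the ER membrane, a list of 9 ER-phagy receptors and reticulons of which 8 passed the filter, gave positive log2 fold changes for all 8 in PDGF-NS against control (median 0.39, beside 0.13 for all genes, and positive for all 8 with a median of 0.26 under each of the 3 rescalings), of which 2 were called higher (limma, adjusted p under 0.05), or 25.0%, near the 20.7% of all genes. Against IGF-NS, 3 were called higher in PDGF-NS (37.5%, beside 8.33% of all genes) and none lower. Rtn4, a reticulon that keeps ER tubules curved, had 84.9 ± 5.34 FPKM in control, 113 ± 9.46 in IGF-NS and 185 ± 30.9 in PDGF-NS. It rose in PDGF-NS by 1.10 ± 0.14 (adjusted p = 0.00036) and was higher than in IGF-NS by 0.70 ± 0.14 (adjusted p = 0.0084). Atl3, an atlastin GTPase that fuses ER tubules, went from 58.5 ± 4.94 FPKM in control to 101 ± 3.18 in PDGF-NS (0.77 ± 0.11, adjusted p = 0.00056). Fam134b, an ER-phagy receptor, had 12.03 ± 1.71 FPKM in PDGF-NS and 6.95 ± 0.49 in IGF-NS (0.71 ± 0.13, adjusted p = 0.0055). These calls held under all 19 alternatives. In IGF-NS against control 1 gene of the list, Rtn3, was called higher (12.5%, beside 17.4% of all genes), by 0.36 (adjusted p = 0.0498). That call ended under 15 of 19 alternatives, including the omission of any 1 library other than control library 1 (adjusted p from 0.059 to 0.15).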
